A study of Mus musculus with 2 samples.

Results

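The Fox, Pax, Tbx, Lhx, Dlx, Irx and Nkx genes and the sine oculis homeobox genes are transcription factor families that assign cells to lineages in the embryo. They were taken from the GENCODE mouse annotation by symbol (Fox with a letter from a to s and digits, Pax, Tbx, Lhx, Dlx, Irx or the sine oculis prefix with digits only, Nkx with a digit, a hyphen and digits), which gave 106 of 21938 nuclear protein-coding genes. The 106 genes were 44 Fox, 14 Nkx, 13 Tbx, 9 Pax, 8 Lhx, 6 Dlx and 6 Irx genes and 6 sine oculis homeobox genes. SRCAP, the catalytic subunit of a remodeling complex that places the histone variant H2A.Z into nucleosomes, was mapped by CUT&Tag, in which an antibody directs the Tn5 transposase to the protein on chromatin. Both libraries came from SYAT cells, a line of CGR8 mouse embryonic stem cells (mESC) with YPet and an auxin-inducible degron knocked into both Srcap alleles and with the plant receptor OsTir1 expressed from a lentiviral EF1a promoter. An antibody against GFP, which also recognises YPet, marked SRCAP, and per the labels Drosophila nuclei with an antibody against H2Av, the fly H2A.Z, were added as a spike-in. Both replicates shared the control condition, in which auxinole blocks degradation of SRCAP, and serum and LIF medium in place of routine medium with CHIR99021 and PD184352 before the experiment. There was thus 1 group of 2 libraries from 1 line, which descends from 1 homozygous clone. The labels give duplicates without saying whether they came from separate cultures, while the reporting form of the study describes its replicates in general as cells grown and treated separately. SRCAP-depleted cells were not analysed here.

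Forkhead (Fox) proteins share a winged helix DNA-binding domain, Pax proteins a paired domain and Tbx proteins the T-box. Lhx, Dlx, Irx, Nkx and sine oculis homeobox proteins bind DNA through a homeodomain, in Lhx proteins together with LIM domains. In embryonic stem cells most of these genes are silent or low, and many of their CpG-rich promoters carry activating and Polycomb marks together, a state called bivalent. A few members, such as Foxd3, Foxo1, Foxp1 and Foxk2, are known to be broadly expressed or active in stem cells.

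The measurement was the presence of a MACS2 peak from 1000 bp upstream to 500 bp downstream of any annotated transcription start site (TSS) of a gene, which is called a promoter peak here. Replicate 1 had 6158 peaks and replicate 2 had 12958 peaks. The read depth behind either list is unknown, a gene without a peak is one where none was detectable at that depth, and the lists hold no signal for such genes. Of markers of pluripotent cells, Zfp42 had a promoter peak in both replicates, Pou5f1 and Sox2 in replicate 2 only, and Nanog in neither. This is no measure of expression.

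Of the sequences at these peaks, those of Foxn3 and Irx1 are shown because both replicates had a promoter peak there. They are followed by the highest-scoring peak found in replicate 2 only that lies largely outside untranslated exons (Foxo3), by the only peak of a promoter in the CpG-poorest of the classes given further on (Foxr2), and by the CpG-richest promoter without a peak (Foxk2). Capitals mark CpG dinucleotides, all sequences run 5′ to 3′ along the gene's strand, and stretches annotated as untranslated were left out. Positions are chr12:99412218-99412468, minus strand for Foxn3, chr13:71959485-71959784, minus strand for Irx1, chr10:42277678-42277977, minus strand for Foxo3 and chrX:153119091-153119310, plus strand for Foxr2, all in GRCm38 (mm10). The Foxk2 promoter was taken from RefSeq (GRCm38.p6) at chr11:121259737-121259989, plus strand.
Foxn3: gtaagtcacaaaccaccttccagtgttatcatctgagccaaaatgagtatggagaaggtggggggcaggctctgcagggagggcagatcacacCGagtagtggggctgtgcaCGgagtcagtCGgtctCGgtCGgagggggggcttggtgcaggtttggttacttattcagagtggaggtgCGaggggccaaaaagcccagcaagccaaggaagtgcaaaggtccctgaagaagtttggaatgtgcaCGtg
Irx1: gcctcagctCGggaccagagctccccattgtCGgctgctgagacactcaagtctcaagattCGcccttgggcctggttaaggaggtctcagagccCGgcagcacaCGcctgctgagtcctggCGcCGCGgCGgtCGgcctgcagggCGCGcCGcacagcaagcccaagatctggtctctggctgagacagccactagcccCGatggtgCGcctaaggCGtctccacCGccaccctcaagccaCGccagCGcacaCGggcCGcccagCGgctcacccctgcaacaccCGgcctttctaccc
Foxo3: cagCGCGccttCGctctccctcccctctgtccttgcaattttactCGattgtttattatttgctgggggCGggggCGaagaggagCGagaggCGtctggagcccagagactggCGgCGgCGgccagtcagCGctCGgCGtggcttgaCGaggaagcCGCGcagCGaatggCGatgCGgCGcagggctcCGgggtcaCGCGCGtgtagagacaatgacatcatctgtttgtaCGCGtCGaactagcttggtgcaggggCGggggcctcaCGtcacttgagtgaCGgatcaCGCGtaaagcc
Foxr2: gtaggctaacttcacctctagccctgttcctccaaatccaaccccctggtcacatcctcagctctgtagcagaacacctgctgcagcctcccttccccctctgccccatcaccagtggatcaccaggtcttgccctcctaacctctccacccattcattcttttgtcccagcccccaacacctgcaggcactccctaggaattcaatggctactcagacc
Foxk2: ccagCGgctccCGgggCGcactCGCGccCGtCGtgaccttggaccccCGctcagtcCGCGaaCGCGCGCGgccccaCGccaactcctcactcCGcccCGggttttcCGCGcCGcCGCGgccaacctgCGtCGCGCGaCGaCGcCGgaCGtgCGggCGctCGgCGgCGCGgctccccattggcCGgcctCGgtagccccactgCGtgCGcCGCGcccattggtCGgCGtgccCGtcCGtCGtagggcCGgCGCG
The Foxn3 stretch holds 7 CpGs in 251 bases, against 23 in 300 bases at Irx1. The Foxo3 stretch holds 33 CpGs in 300 bases and that of Foxr2 holds 0 in 220 bases. Foxk2, with no peak in either replicate, holds 50 in 253 bases.

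To ask how often SRCAP was found at these promoters, the genes with a promoter peak were counted in each replicate beside all protein-coding genes. In replicate 1, 5 of the 106 genes (4.72%, 95% Wilson interval 2.03 to 10.6%) had a promoter peak, against 15.7% of all coding genes. In replicate 2 it was 20 genes (18.9%, 12.6 to 27.4%) against 30.4%. The share was 0.3 times that of all coding genes in replicate 1 (0.129 to 0.673) and 0.622 times in replicate 2 (0.414 to 0.901). With the list of replicate 2 limited to the 6158 strongest peaks, the length of the other list, 6 genes had a promoter peak in replicate 2 and the ratio was 0.295. Over the full lists both shares were below the background, which lay outside both intervals. In replicate 2 this did not hold when peaks at another coding promoter were left out or against classes of TSS number, both given further on. In replicate 1 it did not hold with a peak score of at least 50, where 1 gene had a promoter peak (0.943%, 0.167 to 5.15%) against 4.21%. These intervals cover counting error over genes only, and genes of 1 cluster, such as the Irx genes, are not independent.

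In both replicates, 3 genes had a promoter peak (2.83%, 0.967 to 7.99%), against 12.0% of all coding genes. In either replicate it was 22 genes (20.8%, 14.1 to 29.4%) against 34.0%. Of the 5 genes with a peak in replicate 1, 60.0% also had one in replicate 2, and of the 20 in replicate 2, 15% had one in replicate 1. For all coding genes these shares were 76.7% and 39.7%. The remaining 84 genes had no promoter peak in either list.

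Among the families, Fox, the largest, had a promoter peak at 1 of 44 genes in replicate 1 and at 9 in replicate 2. Pax had 0 and 3 of 9, Tbx 0 and 2 of 13, and Lhx 0 and 2 of 8. Nkx had 1 and 2 of 14, Irx 2 and 2 of 6, and Dlx 1 and 0 of 6. No sine oculis homeobox gene, a family that acts in eye, muscle and kidney development, had one in either replicate, and a count of 0 in 6 genes leaves an upper limit of 39.0% by the Wilson interval. The families are too small to be ranked, as the plot of shares by family shows.

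**Figure D1:**
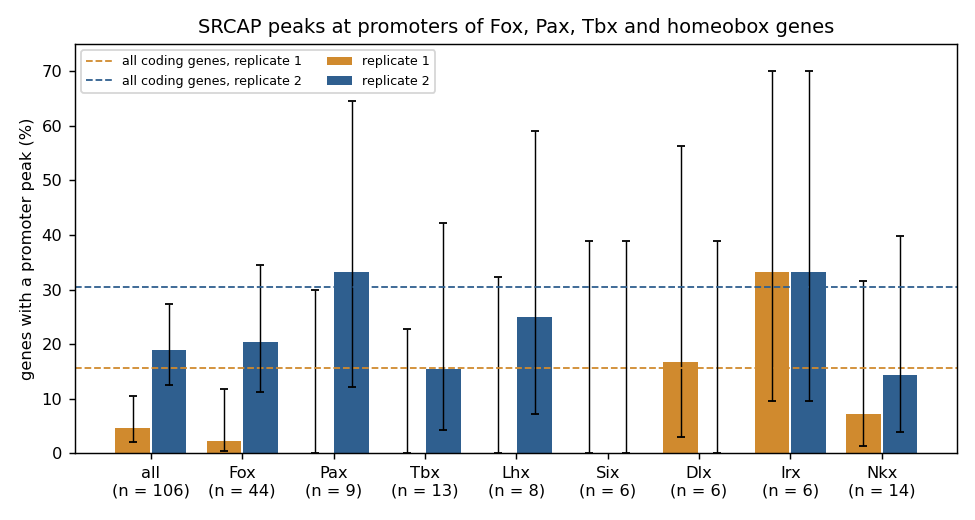
Share of genes with a promoter peak (%) for all 106 genes and for each family, by replicate. Error bars are 95% Wilson intervals for counting error, and dashed lines mark all protein-coding genes (15.7% and 30.4%). The bars for all 106 genes (4.72% and 18.9%) lie below the lines, while the intervals of most single families reach across them.

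The strongest promoter peak present in both replicates was at Foxn3, a broadly expressed forkhead repressor, with a score of 53 in replicate 1 and 71 in replicate 2. The score is that of the peak caller, read as 10 times the -log10 of the q-value, and can be compared only within a list. It stood above 77.1% of the peaks at coding promoters in replicate 1 and above 79.8% in replicate 2. The peaks (chr12:99412128-99412661 and chr12:99412218-99412931) shared 444 bp and covered an internal TSS of Foxn3, 150977 bp inside the gene from its annotated start. In replicate 1, 137 bp of the peak lay in an untranslated exon and 397 bp in no annotated exon sequence of Foxn3.

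At Irx1, an Iroquois homeobox gene, the scores were 13 and 20, the first of them the lowest score in the list. The Irx1 peaks (chr13:71959460-71959808 and chr13:71959325-71959935) lay entirely in coding sequence, near an internal TSS 4290 bp from the annotated start of the gene. The peak of replicate 2 covered this TSS, and that of replicate 1 ended 27 bp upstream of it. In replicate 2 the score was above 5.72% of the peaks at coding promoters, so that Irx1 stood near the bottom of both lists and Foxn3 in the upper range.

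Replicate 1 alone had a peak at Irx6, with a score of 25, and at Dlx2, a distal-less gene of forebrain interneurons, with a score of 13. The Irx6 peak (chr8:92673378-92674079) was 702 bp wide, the widest of the 5, and had its midpoint at -560 bp from the TSS (negative values are upstream). The Dlx2 peak (chr2:71546108-71546543) had 285 bp in coding and 151 bp in untranslated exon sequence. In replicate 2 the nearest peak was 152473 bp from a TSS of Irx6 and 60068 bp from one of Dlx2.

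Replicate 2 alone had promoter peaks at 17 genes, led by Pax9 with a score of 72, above 80.5% of the peaks at coding promoters in that list. Pax9, a paired box gene of tooth and thymus development, had its peak (chr12:56695625-56695932) over 2 TSSs that lie 3962 bp inside the annotated gene, with 236 of 308 bp in untranslated exon sequence. Foxo3, a forkhead factor of stress response and metabolism, followed with a score of 53, at chr10:42277590-42278065. Its midpoint lay at -1072 bp from the nearest TSS, just beyond the window that the peak's edge reached.

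Foxr2, on the X chromosome, had a score of 42 and Foxd1, a forkhead gene of kidney stroma, one of 39. Lhx3, which acts in pituitary and motor neuron development, and Tbx20, a T-box gene of the heart, had a score of 37 each. Lhx9, a LIM-homeobox gene of the gonad, had 36. These 5 scores were below the median of 43 of the peaks at coding promoters in replicate 2.

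The other 10 scores in replicate 2 alone ranged from 13 to 33. Among forkhead genes they were 33 at Foxo1, 26 at Foxp1, 24 at Foxj1, the regulator of motile cilia, 14 at Foxp3, the factor of regulatory T cells, and 13 at Foxd2. Both Pax3, of neural crest and muscle, and Pax6, of eye and brain, had 32. Tbx2 had 29, Irx2 28 and Nkx6-1, of pancreatic beta cells and motor neurons, 25. In replicate 1 the nearest peak was 975971 bp from Foxp1, 937695 bp from Pax3 and 157470 bp from Pax6, so that these were not near misses of the window.

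**Figure D2:**
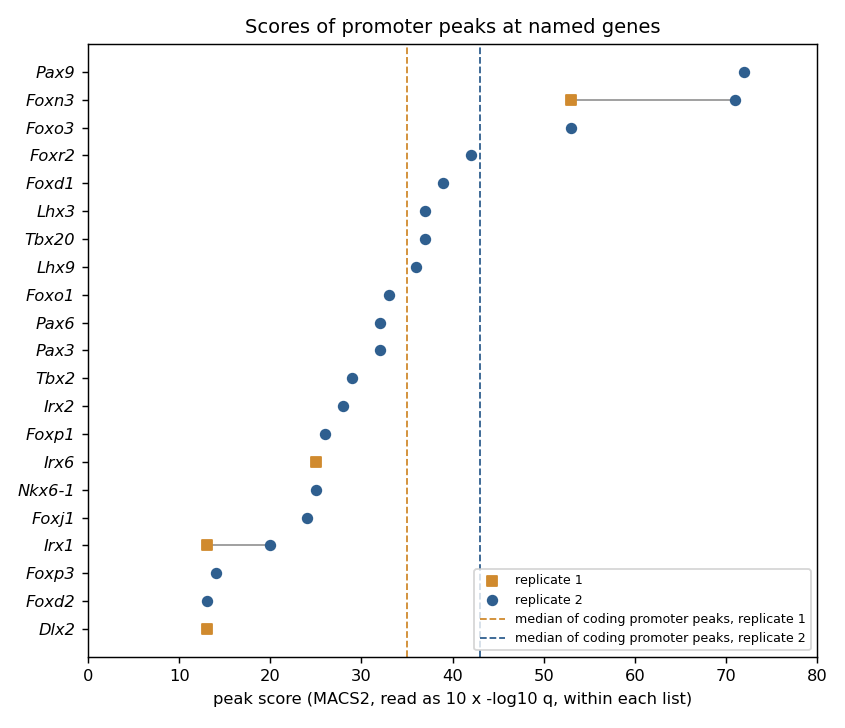
Peak scores (horizontal axis) of the genes with a promoter peak that are named in the text, squares for replicate 1 and circles for replicate 2, joined where both replicates had a peak. Dashed lines mark the median score of peaks at coding promoters, 35 in replicate 1 and 43 in replicate 2. Only Pax9, Foxn3 and Foxo3 lie to the right of the line of replicate 2.

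The promoter peaks of these genes had lower scores than most peaks at coding promoters. The median score of the 5 peaks in replicate 1 was 25 (13 to 53), against 35 over 3090 peaks at coding promoters, and 4 of the 5 were below that median. In replicate 2 the median of 20 peaks was 32.5 (13 to 72), against 43 over 6211, and 17 of the 20 were below it. Widths did not show the same order. In replicate 1 the peaks of the families had a median of 436 bp, against 354 bp at coding promoters, and in replicate 2 it was 388 bp against 409 bp.

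Fewer peaks lay over a TSS of the gene than beside it. In replicate 2, 9 of 20 covered a TSS of the gene and 14 had their midpoint upstream of it, and in replicate 1 the counts were 2 and 3 of 5. The peak of Foxp1 covered 5 TSSs of the gene, which are 494463 bp inside it, counted from the annotated start to the nearest of them. That of Pax6 (chr2:105680715-105681008) lay in an intron, with its midpoint at -851 bp from an internal TSS, and was not counted when only TSSs of protein-coding transcripts were used.

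**Figure D3:**
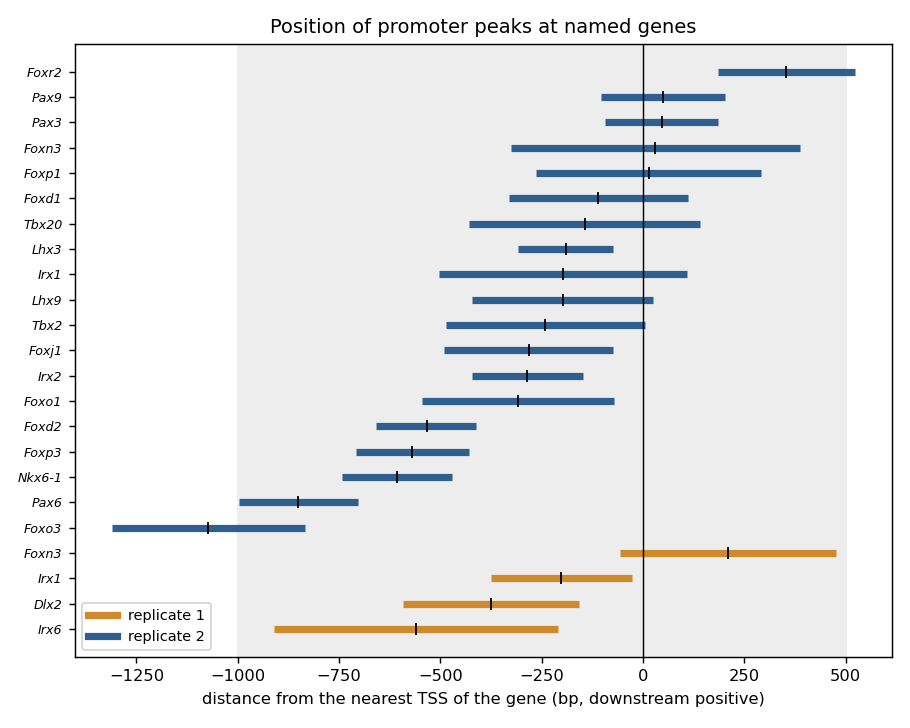
Extent of the promoter peaks of the genes named in the text, relative to the nearest TSS of each gene (bp, downstream positive), with the midpoint as a black tick and the promoter window in grey. Peaks of Foxn3 and Irx1 appear in both replicates, and the peak of Foxo3 reaches the window only by its edge.

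A peak at a promoter can belong to a neighbouring gene. In replicate 1, all 5 peaks were at the promoter of no other annotated gene, and in replicate 2 it was 16 of 20. The exceptions were Foxp3, whose peak was also at the promoter of coding Ppp1r3f and of Flicr, and Tbx2, Irx2 and Foxd2, whose peaks were also at the promoters of noncoding 2610027K06Rik, Gm20554 and Foxd2os. Without peaks at another coding promoter, the counts were 5 and 19 genes, or 0.394 and 0.752 times the share of all coding genes counted in this way. In replicate 2 that share, 23.8%, then lay within the interval of the families (17.9%, 11.8 to 26.3%), so that the lower share there was no longer outside counting error.

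SRCAP peaks over all coding genes were more frequent at CpG-rich promoters, and these families are rich in them. The median CpG observed to expected ratio (the CpG count times the length, divided by the product of the C and G counts) was 0.707 over the 106 genes and 0.553 over all coding genes. For a gene with several TSSs, the highest ratio over its windows was used. In the class from 0.6 to 0.8, 1 of 42 genes had a promoter peak in replicate 1 (2.38%, 0.422 to 12.3%) and 7 in replicate 2 (16.7%, 8.32 to 30.6%), against 25.5% and 49.2% of all coding genes in the class. At 0.8 and over, 2 of 31 (6.45%, 1.79 to 20.7%) and 8 of 31 (25.8%, 13.7 to 43.2%) had one, against 26.5% and 50.1%. In these 2 classes the share of all coding genes lay above the interval of the families in both replicates. The class of a gene need not describe the sequence under its peak. At 0.8 and over, the peaks of Foxn3 had ratios of 0.282 and 0.251 and that of Pax6 0.161. The other peaks of this class had ratios from 0.638 to 1.0.

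From 0.4 to 0.6, 2 and 4 of 19 genes had a promoter peak (10.5% and 21.1%), against 18.4% and 36.1% of all coding genes. Under 0.4 it was 0 and 1 of 14, the 1 gene being Foxr2 at a ratio of 0.151, against 2.18% and 4.57%. In these classes the intervals of the families held the share of all coding genes. If the 106 genes had the shares of all coding genes in their CpG classes, 22.8 would have a promoter peak in replicate 1 and 43.7 in replicate 2, where 5 and 20 were counted.

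**Figure D4:**
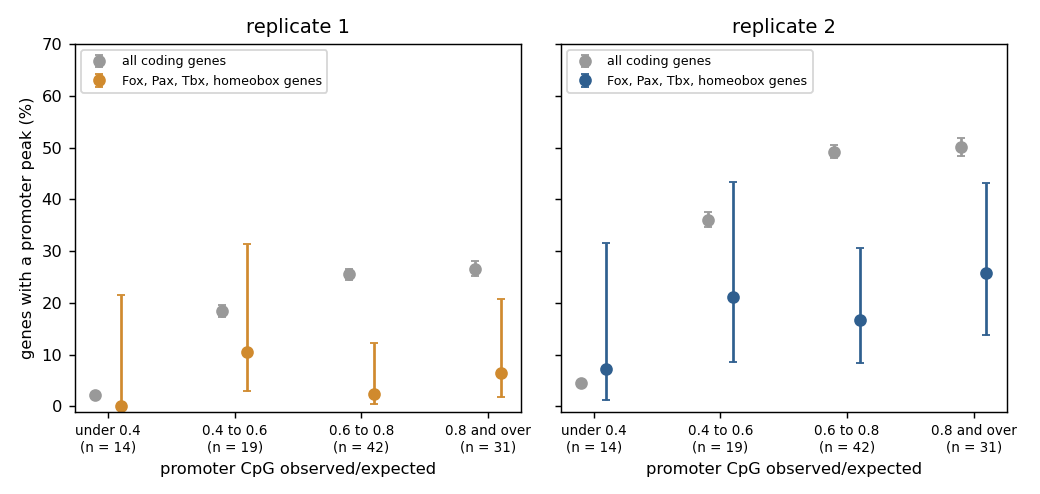
Share of genes with a promoter peak (%) by class of the promoter CpG observed to expected ratio, in replicate 1 (left) and replicate 2 (right), for the 106 genes in colour and all protein-coding genes in grey. Error bars are 95% Wilson intervals and n counts the family genes. In the classes of 0.6 and over the coloured points lie below the grey points without overlap of the bars.

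The families also have fewer TSSs per gene, with a median of 2 against 3, and therefore a shorter window, 1795.5 bp against 3002 bp. With classes of the number of TSSs alone, 13.8 and 26.8 genes would have a promoter peak at the shares of all coding genes, and the latter, 25.3%, lay within the interval of the families in replicate 2 (12.6 to 27.4%). With classes of both CpG ratio and number of TSSs, the counts at the shares of all coding genes were 20.6 and 39.9. Of the 41 genes with 1 TSS, 7 (17.1%, 8.53 to 31.3%) had a promoter peak in replicate 2, against 13.6% of all coding genes with 1 TSS, so that in this class the share was not lower. In replicate 1 it was 1 of 41 (2.44%, 0.432 to 12.6%) against 6.62%. With 4 TSSs and over, the counts were 1 of 31 (3.23%, 0.572 to 16.2%) in replicate 1 and 9 (29.0%, 16.1 to 46.6%) in replicate 2, against 22.6% and 43.7%. In replicate 2 the interval of this class held the share of all coding genes.

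Known roles of the genes were then set beside the peaks. Of 15 members listed as broadly expressed or active in stem cells, 1 had a promoter peak in replicate 1 (6.67%, 1.19 to 29.8%) and 4 in replicate 2 (26.7%, 10.9 to 52.0%). The shares of all coding genes, 15.7% and 30.4%, lay within both intervals, and the share was 0.425 times that of all coding genes in replicate 1 (0.0756 to 1.9), 0.878 times in replicate 2 (0.359 to 1.71) and 0.553 times in both replicates (0.0985 to 2.47). The genes were Foxn3 in both replicates and Foxo1, Foxo3 and Foxp1 in replicate 2. Among the 11 without one, the nearest peak of replicate 2 was 5412 bp from a TSS of Foxd3, a factor of pluripotent cells and neural crest, 7121 bp from Foxm1, of the cell cycle, 8374 bp from Foxj2 and 9551 bp from Foxh1, the SMAD partner in Nodal signaling. It was 13335 bp from Foxp4, 18804 bp from Foxo4, 22694 bp from Foxk2, 32241 bp from Foxk1, 68157 bp from Foxn2 and 112252 bp from Foxj3. The farthest was Tbx3, a T-box gene active in stem cells, at 729458 bp. All these distances were above 5000 bp. Of the other 91 genes, 4 (4.4%, 1.72 to 10.8%) and 16 (17.6%, 11.1 to 26.7%) had one, and with 15 genes the intervals of both lists overlapped.

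A panel of 14 well-known lineage regulators, from Foxa2 of endoderm to Nkx2-5 of the heart and Tbx6 of paraxial mesoderm, had a promoter peak in 0 genes in replicate 1 and in 1, Pax6, in replicate 2, beside 15.7% and 30.4% of all coding genes. The Wilson intervals for 0 and 1 of 14 genes, 0 to 21.5% and 1.27 to 31.5%, held these shares. The nearest peak of replicate 2 was 413597 bp from a TSS of Foxa2, 40088 bp from Nkx2-5, 17570 bp from Tbx6 and 573552 bp from Tbx5. For the kidney genes Six2 and Lhx1 it was 111636 and 8479 bp, for Nkx2-1, of lung and thyroid, 158717 bp, and for Dlx5 and Irx3 73931 and 171819 bp. For the forkhead genes Foxc1 and Foxf1 it was 221785 and 41108 bp. Other developmental factor families were counted for comparison. Of 39 Hox genes, 0 (0 to 8.97%) and 2 (5.13%, 1.42 to 16.9%) had a promoter peak, and both intervals lay below the 15.7% and 30.4% of all coding genes. Of 70 Sox, Gata, Zic, Pou and other developmental factors, 7 (10.0%, 4.93 to 19.2%) and 15 (21.4%, 13.4 to 32.4%) had one, and both intervals held the share of all coding genes. The intervals of the Hox genes and of these factors overlapped those of the Fox, Pax, Tbx and homeobox families.

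Peaks near the genes but outside their promoters were also counted, within the gene and 5000 bp on either side. With these, 12 of 106 genes (11.3%) had a peak in replicate 1 and 33 (31.1%) in replicate 2, against 23.0% and 41.8% of all coding genes, whose median length was 17425 bp against 6939 bp. In replicate 1, 9 such peaks outside promoters stood at 8 genes, and in replicate 2, 20 stood at 17 genes, 10 of them with the midpoint in an intron.

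Within the gene and its flanks, 7 of 106 genes (6.6%) had a peak in both replicates, against 17.9% of all coding genes, a count that does not ask for overlap. Peaks of both replicates overlapped at 7 genes, the 3 with promoter peaks and 4 others, of which Foxk1, Irx5 and Lhx1 are described. At Foxk1 they lay in an intron, with scores of 43 and 22. Those at Irx5 had scores of 52 and 127 and were at the promoter of the neighbouring Crnde, and those at Lhx1, with 37 and 35, at the promoter of Aatf. The score of 127 at Irx5 was above every promoter peak of the 106 genes in replicate 2.

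From a TSS of the gene to the nearest peak, the median distance was 78965.5 bp in replicate 1, against 67397.5 bp over all coding genes, and 32306 bp against 20536 bp in replicate 2. Besides Irx5, Tbx18 and Tbx15 were just outside the promoter rule in replicate 2, with the nearest peak 511 and 602 bp from a TSS and scores of 51 and 50. The peaks of Tbx18 and Tbx15 were on the downstream side of the window, and that of Tbx18 was at the promoter of D030062O11Rik.

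**Figure D5:**
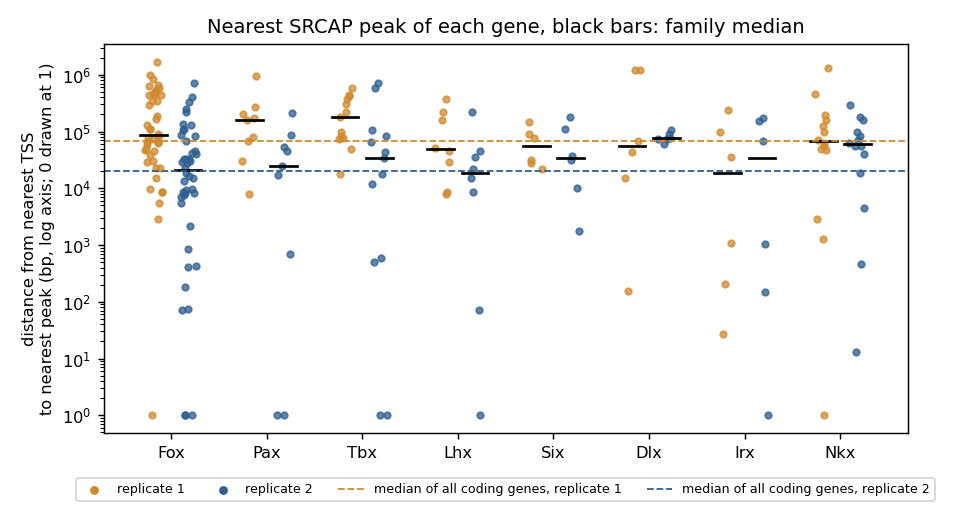
Distance from the nearest TSS of each gene to the nearest peak (bp, log axis, 0 drawn at 1), 1 point per gene, by family and replicate. Black bars are family medians and dashed lines the medians of all coding genes (67397.5 bp in replicate 1 and 20536 bp in replicate 2). Points spread over several orders of magnitude in each family.

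Short sequence elements were counted on both strands in the 300 bases from 250 bp before to 50 bp after each TSS. They were CCAAT (the NF-Y element), GGGCGG (the core of the GC box), TATAAA and AAGATGG (the core of the YY1 element), and none of them contains another. Of 114 TSSs of the 22 genes with a promoter peak, 38.6% held CCAAT and 35.1% GGGCGG, against 35.9% and 49.4% of 231 TSSs of the 84 genes without one. Over all 93513 TSSs of coding genes the shares were 34.8% and 38.5%. TATAAA was in 6.14% and 6.93%, against 11.5% over all coding genes, and AAGATGG in 0.877% and 1.73%, against 6.99%. Genes with many TSSs, such as Foxp1 with 22, weigh more in these shares, and a match is no binding site.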

How the data were processed

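The authors deposited 1 list of CUT&Tag peaks per replicate, with a whole-number score per peak from MACS2, and 2 such lists in 1 group were used. Per the labels, STAR, Picard and MACS2 were used with mm10. The methods describe unique alignments, removal of duplicates and of blacklisted regions, and downsampling by Drosophila reads for ChIP-seq and CUT&Tag together. The reporting form gives, in its ChIP-seq part, a MACS2 command for paired-end fragments with an input library as control, and lists the GFP antibody for CUT&Tag there. Whether these steps and such a control were used for these lists is not stated separately. The reporting form of the study lists versions of these tools for all its genomic data, among them a later major version of MACS than the labels name. The minimum score was 13 in both lists, which is 10 times -log10 of a q-value of 0.05 as a whole number. No signal values or depths were at hand, and each list held 6 mitochondrial peaks, which touch no gene counted.

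Genes and TSSs were taken from GENCODE M21 and sequence from GRCm38. An overlap of 1 bp with the promoter window counted. The members and lists were chosen with earlier results of these data known, and no test was run, as there is 1 group. Named genes were those with a peak in both replicates, the 8 highest scores among those with a peak in 1 replicate only, the 15 broadly expressed genes and the panel of 14, of which a few are not reported here. The other genes with a peak, the genes with peaks outside promoters and those just outside the window were named after their values were seen. The RefSeq promoter table held 67.9% of the members, too few for element counts, so windows around all GENCODE TSSs were used instead, a choice made after seeing the data. The overlap code was tested on simulated data. The software was matplotlib 3.10.9, scipy 1.17.1, pandas 2.3.3 and numpy 2.4.6 in Python 3.11.15.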

Additional observations from a re-analysis of the deposited data

How the results depend on the processing

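Of 84 values under other settings, 69 stayed within 1.5 times (counts) or within the counting interval of the main value (ratios) and 15 moved. All 42 ratios to the share of all coding genes were below 1. With a score of at least 50, the genes with a promoter peak were 1 in replicate 1, 3 in replicate 2, 1 in both (Foxn3) and 3 in either, and the ratio was 0.217 in replicate 2 and 0.198 in either. With both lists limited to 6158 peaks, it was 6 genes in replicate 2, 1 in both (Foxn3) and 10 in either, with ratios of 0.295 and 0.375. With the annotated gene start only, it was 3 in replicate 1 and 1 in both. Leaving out a replicate gave 5 to 20 genes in place of the 22 in either, with ratios of 0.3 to 0.622, and genes in both replicates cannot then be counted. The cause of these shifts was not tested, apart from the smaller number of peaks or TSSs that the settings themselves impose. The share of all coding genes lay within the interval of the families in replicate 1 and in both replicates with a score of at least 50, and in replicate 2 and in either without peaks at another coding promoter. No paired analysis was possible because both libraries belong to the same group.

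The lists hold called peaks without depth or signal, so that a missing peak in replicate 1 can be a peak below its threshold. The 2 libraries differ in peak number, and 17 of 22 genes had a promoter peak in the longer list alone. Most statements on single genes therefore rest on 1 library.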
